A study of Ovis aries with 13 samples.

Results

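The inhibin, activin and follistatin family was examined on arrays of sheep left ventricle. Its members were taken by gene name: inhibin alpha (INHA), any inhibin beta subunit, any gene whose symbol starts with ACVR (the activin receptors), and follistatin (FST). The rule found 12 probes of 7 genes among the 15008 non-control probes of the array: INHA, INHBA, FST, ACVR1, ACVR1B, ACVR2A and ACVR2B. No probe carrying the name of another inhibin beta subunit, of ACVR1C or of ACVRL1 was found, and these genes were not analysed here. INHA and ACVR1 were picked with the difference between newborn and fetal ventricles known, so all newborn minus fetal values of the family are given as a description, with a standard error and no test.

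Activins and inhibins are secreted dimers built from shared parts. An activin joins a pair of beta subunits, whereas an inhibin joins one beta subunit to the alpha subunit that INHA encodes, and it hinders activin at the type II receptors. Activin binds a type II receptor (ACVR2A or ACVR2B), which recruits a type I receptor such as ACVR1B and passes the signal to SMAD2 and SMAD3, while ACVR1 mainly serves bone morphogenetic proteins. Follistatin binds activin outside the cell and keeps it from its receptors. Inhibin is best known as a gonadal hormone that lowers follicle-stimulating hormone, and INHA is also made in the adrenal cortex.

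The newborn group held 7 lambs at postnatal day 1 (4 females and 3 males), and the fetal group held 6 fetuses at gestational day 142 (2 females and 4 males). Each animal gave 1 array of total RNA from frozen left ventricle, with no treatment or transgene in either group. By the labels 9 animals share 4 numbers, under different letters, with another of their group, and the labels do not say whether such animals were littermates. The arrays lay on 2 slides, with 3 newborn and 4 fetal arrays on slide 1, and 4 newborn and 2 fetal arrays on slide 2.

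Levels are on a log2 scale relative to the 75th percentile of the array's processed signals, so a probe at 0 is as bright as that percentile. That percentile lay between 219 and 367 signal units on the 13 arrays, and 62.7% to 71.4% of probes were well above background on each. A probe was tested if it was well above background on at least 6 arrays, which kept 10255 probes. On the first principal component of 10139 tested probes, which held 36.8% of the variance, 6 newborn arrays lay between 10.1 and 35.1 and the fetal arrays between -29.1 and -20.4. Newborn 6 stood apart at -9, between the groups, and INHA values are also given without it. Of 24 heart muscle cell markers, 2 had a named probe and both were bright: myoglobin (MB) averaged 8.63 ± 0.39 in newborn and 8.97 ± 0.18 in fetal ventricles (SD, n = 7 and 6). Tropomyosin 1 (TPM1) averaged 9.24 ± 0.16 on the 6 newborn arrays that gave a value and 9.09 ± 0.08 on 6 fetal arrays.

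The probes themselves decide how many separate measurements the family has. Each is 60 bases long. The INHA pair and the INHBA pair are shown because each pair is nearly 1 probe printed again, shifted by a single base. Capitals mark the bases that the probes of a pair share, 59 of 60 in both pairs.
INHA, A_70_P016836: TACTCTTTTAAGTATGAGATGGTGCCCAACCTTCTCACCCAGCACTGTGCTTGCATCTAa
INHA, A_70_P016837: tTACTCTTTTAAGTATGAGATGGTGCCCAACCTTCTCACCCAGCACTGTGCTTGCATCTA
INHBA, A_70_P051056: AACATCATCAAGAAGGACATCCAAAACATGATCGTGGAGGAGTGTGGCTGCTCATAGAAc
INHBA, A_70_P051057: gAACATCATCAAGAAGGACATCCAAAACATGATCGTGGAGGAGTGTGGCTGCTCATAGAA
The single ACVR1 probe is shown because the gene has no other under its name, and nothing in it is capitalised.
ACVR1, A_70_P026787: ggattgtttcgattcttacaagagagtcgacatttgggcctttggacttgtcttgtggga

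The FST probes also share 59 bases, the ACVR1B probes share 36, and the ACVR2A probes share none. The INHA, INHBA and FST pairs are therefore repeat measurements of the same stretch of transcript, and only the ACVR2A probes share no base. The correlation within a pair over the 13 arrays was r = 0.999 for INHA, 0.923 for INHBA, 0.899 for FST and 0.417 for ACVR2A. It was 0.05 for ACVR1B, whose probes were near background. The design file places these probes on no chromosome and no genome build is named, so no coordinates are given.

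INHA, the subunit that makes an inhibin, was far higher in newborn ventricles. Probe A_70_P016836 had a lowest, median and highest level of 1.02, 2.53 and 2.69 in newborn ventricles, against -1.70, -0.58 and -0.28 in fetal ventricles. Every newborn array lay above every fetal array, newborn 6 was the lowest of its group, and fetal 5 was the lowest of all. In signal units newborn ventricles ran from 510 to 1930 and fetal ventricles from 93.7 to 291, and the probe was well above background on all 13 arrays.

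The newborn minus fetal difference of this probe was 2.97 (SE 0.28), a 7.85-fold higher level. The other INHA probe ran from 0.80 to 2.56 in newborn ventricles and from -1.89 to -0.39 in fetal ventricles, with a difference of 2.99 (SE 0.29). Ordered from the largest newborn excess down, these probes stood at places 12 and 11 among the 10255 tested. They were the only members, 2 of 10 tested probes, with groups that did not overlap, and 0 had every newborn array below every fetal array. Over all tested probes the groups did not overlap for 6.89%, with newborn above for 3.38% and below for 3.51%. These shares are for scale only, since INHA was chosen on this contrast.

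The INHA difference was present within each slide. It was 2.75 within slide 1 and 3.49 within slide 2, and without newborn 6 it was 3.18. Among newborn lambs that share an animal number, 3 arrays (2, 4 and 5) lay at 2.53, 2.55 and 2.61, and a pair (1 and 7) at 2.30 and 2.69. The newborn arrays whose number no other shares were the lowest of the group, newborn 3 at 2.08 and newborn 6 at 1.02. The fetal arrays did not follow this order. Those that share a number lay at -0.28 and -0.84 (1 and 6) and at -0.75 and -1.70 (3 and 5). The others, fetal 2 and 4, lay at -0.34 and -0.40. In whole tissue, more cells of a type and more RNA per cell cannot be told apart, for this or any gene below.

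**Figure D1:**
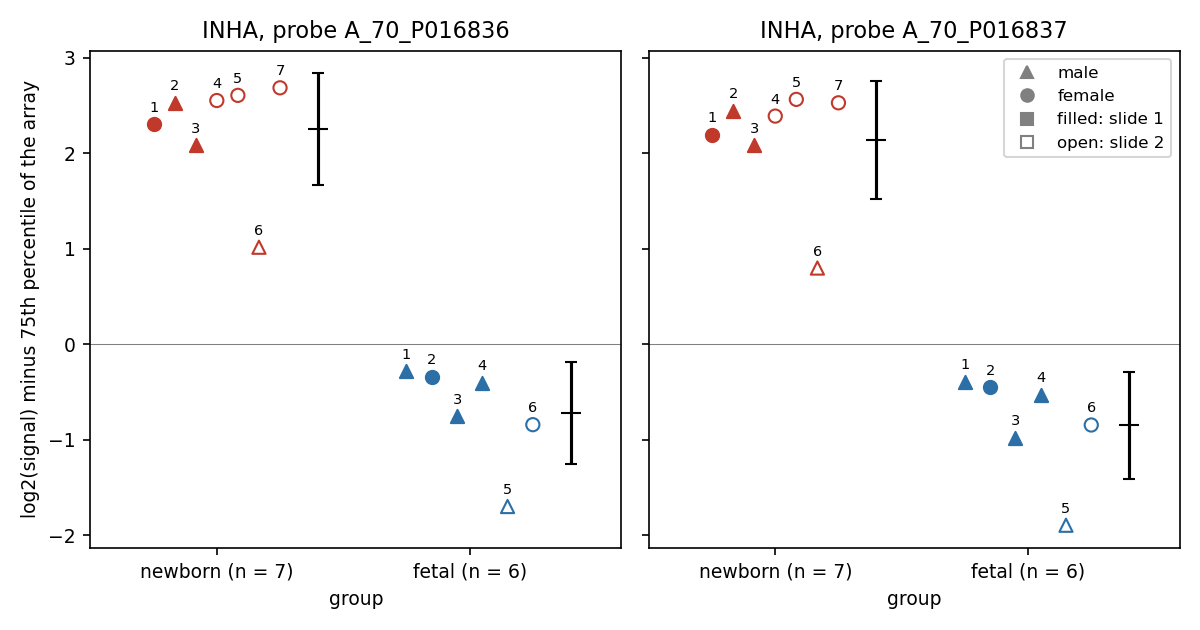
INHA level (vertical axis, log2 signal minus the 75th percentile of the array) on each array for both probes, newborn on the left and fetal on the right. Numbers are replicates, triangles are males, circles females, filled symbols slide 1 and open symbols slide 2, and bars show mean ± SD. All 7 newborn arrays lie above 0 and all 6 fetal arrays below it, with newborn 6 the lowest newborn array in both panels.

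INHBA encodes the beta A subunit, which inhibin A and activin A both need. Its first probe had a lowest, median and highest level of -2.92, -2.02 and -1.18 in newborn ventricles, against -3.05, -2.41 and -1.85 in fetal ventricles. The groups overlapped, with newborn 3 the highest newborn array and fetal 3 the highest fetal array on both probes. The differences were 0.50 (SE 0.26) and 0.66 (SE 0.23). On the first probe the difference was 0.80 within slide 1 and 0.21 within slide 2, and on the second 0.81 and 0.57. Without newborn 6, the lowest newborn array on both probes, the differences were 0.65 and 0.75, and with normexp background correction they were 0.16 and 0.28. The spread between animals was wide (newborn SD 0.57 and fetal SD 0.44 on the first probe).

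FST, the activin-binding antagonist, leaned the other way. Its first probe had a lowest, median and highest level of -3.84, -3.27 and -2.55 in newborn ventricles, against -3.40, -2.66 and -2.24 in fetal ventricles. The groups overlapped, with fetal 1 as low as most newborn arrays and newborn 7 the highest of its group. The differences were -0.54 (SE 0.21) on this probe and -0.40 (SE 0.19) on the other. Within slides the first probe gave -0.65 on slide 1 and -0.60 on slide 2. With normexp background correction the probes gave -0.21 and -0.14.

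The tested receptor probes had differences below 0. ACVR2B, a type II receptor of activins, had a lowest, median and highest level of -1.71, -1.36 and -0.91 in newborn ventricles, against -1.21, -0.84 and -0.71 in fetal ventricles. The groups overlapped through newborn 6, the highest newborn array, and fetal 5, the lowest fetal array. The difference was -0.47 (SE 0.12), or 1.39-fold lower, with -0.61 within slide 1, -0.29 within slide 2, -0.55 without newborn 6 and -0.27 with normexp.

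ACVR1, the type I receptor that mainly serves bone morphogenetic proteins, had a lowest, median and highest level of -2.34, -1.97 and -1.40 in newborn ventricles, against -1.94, -1.76 and -1.51 in fetal ventricles. The groups overlapped, and newborn 2 was the highest of all 13 arrays. The difference was -0.26 (SE 0.14), with -0.24 within slide 1, -0.31 within slide 2 and -0.13 with normexp. A probe outside the rule, A_70_P026786, is described in the design file as activin receptor type IA, which is another name of ACVR1, and was singled out after its values were seen. It gave -1.68 ± 0.20 in newborn and -1.62 ± 0.20 in fetal ventricles (SD, n = 7 and 6), a difference of -0.06 (SE 0.12).

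ACVR2A, the other type II receptor, was nearly level on the first of its probes. That probe ran from -2.91 to -2.43 in newborn ventricles, with a median of -2.63, and from -2.60 to -2.37 in fetal ventricles, with a median of -2.51. The difference was -0.13 (SE 0.10), with -0.23 within slide 1 and -0.01 within slide 2. The second probe had a lowest, median and highest level of -3.58, -3.07 and -2.49 in newborn ventricles, against -3.26, -3.08 and -1.80 in fetal ventricles. Its difference of -0.22 (SE 0.24) rested on fetal 6, the highest of the 13 arrays, and came to -0.01 without that array.

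ACVR1B, the main type I receptor of activin, was near the limit of the array. One of its probes was well above background on 0 of 7 newborn and 0 of 6 fetal arrays, and the other on 1 of 7 newborn and 0 of 6 fetal arrays. Neither was tested, and no fold is given.

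**Figure D2:**
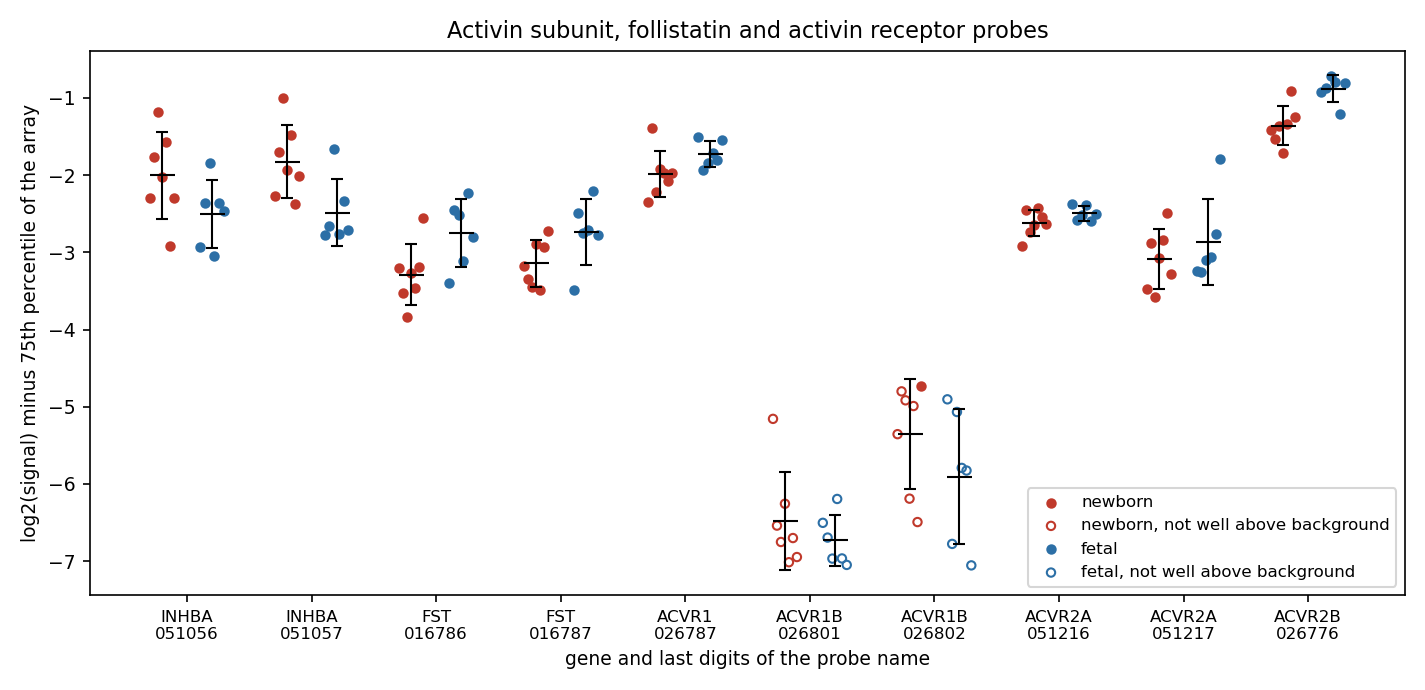
Level of the 10 family probes other than INHA (vertical axis, log2 signal minus the 75th percentile of the array) on each array, newborn left of fetal for each probe, with mean ± SD. Open circles are spots not well above background; they make up nearly all of ACVR1B, and in all 10 probes the groups overlap.

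Among all tested probes, ordered from the largest newborn excess down, the INHBA probes stood at places 519 and 968, ACVR2B at 9212 and the FST probes at 8901 and 9408 of 10255. The ACVR2A and ACVR1 probes lay between 6818 and 8024. The median newborn minus fetal difference of all 10255 probes was 0.03, and 2366 of them (23.1%) passed limma at an adjusted p of 0.05, 12% higher and 11.1% lower in newborn. The 10 tested family probes ran from -0.54 to 2.99. The 4 probes above 0 belonged to the INHA and INHBA subunits, and the 6 below 0 to FST and the receptors. The INHA, INHBA and FST pairs are repeat measurements, so the separate measurements are fewer than 10. The second ACVR2A difference rested on fetal 6.

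**Figure D3:**
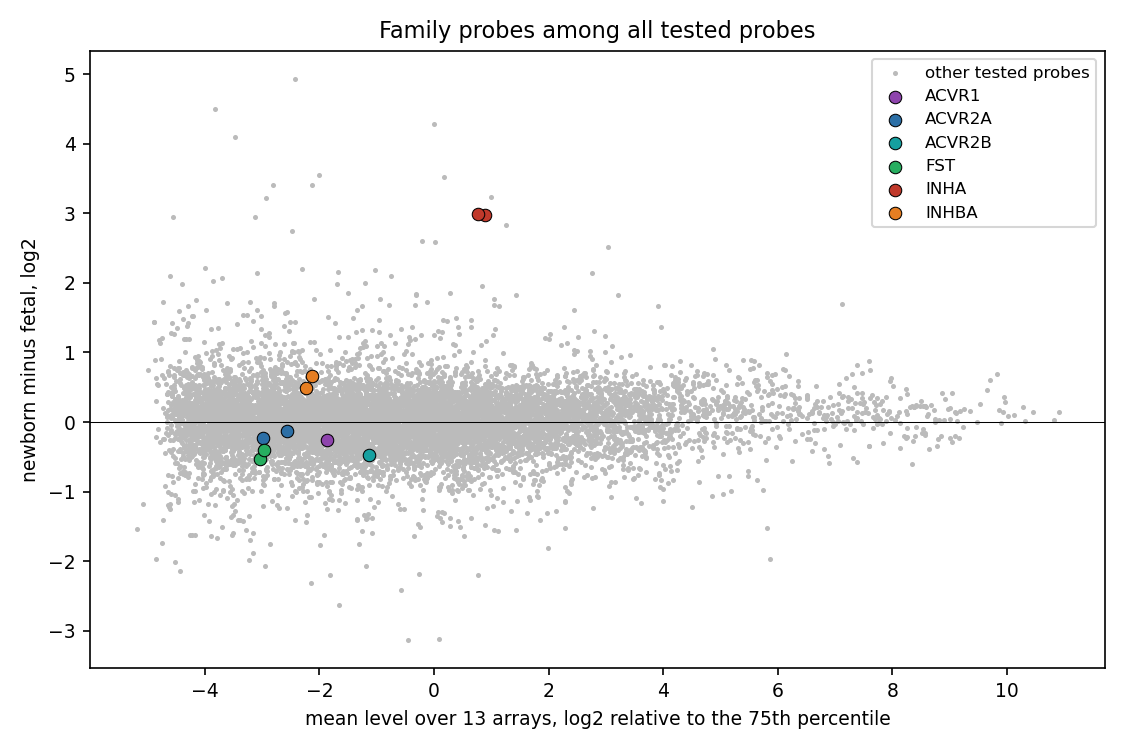
Newborn minus fetal difference (vertical axis, log2) against mean level over 13 arrays (horizontal axis, log2 relative to the 75th percentile) for the 10255 tested probes in grey, with the family in colour. The INHA probes lie near 3, and the other members lie between -0.54 and 0.66.

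Sex was not used to choose the members, so it was tested. With age in the model, no family probe differed between males and females in limma (adjusted p = 0.999 for each of the 10), and among all tested probes 1 passed (0.00975%), with 331 at an unadjusted p below 0.05. For INHA, newborn males averaged 1.88 and newborn females 2.54, and fetal males averaged -0.78 and fetal females -0.59. The male minus female difference was -0.46 (95% interval -1.04 to 0.13), an interval that holds 0 as well as a male level lower by a log2 unit. Newborn 6, the lowest newborn array, is a male, and without it newborn males averaged 2.31 and the difference was -0.21 (95% interval -0.70 to 0.28).

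The newborn minus fetal difference of the family was not shown to depend on sex. The age by sex term in limma passed for 0 probes (0%), while 507 were below 0.05 before adjustment, and for INHA it was -0.47 (95% interval -1.66 to 0.73), or -0.04 (-1.07 to 1.00) without newborn 6. Slide in limma likewise passed for 0 (0%), while 533 were below 0.05 before adjustment. Among the family the second ACVR2A probe had the smallest unadjusted p for slide (0.00681), with slide 2 higher by 0.61 (SE 0.19, limma adjusted p = 0.71).

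Across arrays the correlations of other members with INHA, once the group means were removed, depended on newborn 6. Over 13 arrays they were 0.19 and 0.05 for the INHBA probes, and without newborn 6 they were -0.41 and -0.37. ACVR2B gave -0.25 over 13 arrays and 0.45 without newborn 6, and the ACVR2A probes gave 0.18 and -0.42, against 0.47 and -0.19 without it. FST (-0.24 and -0.39, or -0.27 and -0.37 without it) and ACVR1 (0.27, or 0.26 without it) moved less. ACVR1 and the first ACVR2A probe had the highest such correlation between members of different genes, 0.73, and 0.78 without newborn 6. With the second ACVR2A probe ACVR1 gave 0.42 over 13 arrays, and the ACVR2A probes gave 0.35 with each other. These are descriptions over arrays that share platform and scaling.

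The named genes most like INHA over the 13 arrays were PDXK (r = 0.959), PSMB8 (0.929), SLC25A20 (0.928), CD86 (0.911) and SLIRP (0.905), among 607 compared. PDXK makes the active form of vitamin B6, PSMB8 is an immunoproteasome subunit, SLC25A20 carries acylcarnitines into mitochondria, CD86 is a co-stimulator on antigen-presenting cells, and SLIRP binds mitochondrial RNA. Among the most opposite were GLUT-1 (r = -0.94), a glucose transporter, and PRNP (-0.935), the prion protein. Each r spans both ages, so it holds the age difference as well as the variation between animals.

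With the group means removed, PDXK gave 0.776, CHID1 0.754, RPSA 0.733, GUCY1B1 0.724 and SLC25A20 0.158. RPSA is a ribosomal protein, and GUCY1B1 is a subunit of the nitric oxide receptor. Without newborn 6 PDXK gave 0.537, CHID1 0.392, RPSA 0.516, GUCY1B1 0.756 and SLC25A20 -0.333, while the r of PDXK over both ages was 0.964. PDXK averaged 3.19 in newborn and 1.57 in fetal ventricles, a difference of 1.62 (SE 0.22).

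The other genes of the superfamily were read from lists of ligands, receptors, antagonists, SMAD proteins and responsive transcripts. Of 100 genes in these 5 lists 31 had a named probe and 21 were tested by their brightest probe, of which 2 rose and 2 fell in limma and the rest did not pass. The background among all 613 tested named genes was 13.9% higher and 9.62% lower in newborn. The median difference of the 21 was -0.10, against 0.09 for all named genes.

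Among 5 tested ligands 1 fell and none rose, with a median of -0.33. BMP7, a bone morphogenetic protein, ran from -0.55 to 0.06 in newborn and from 0.08 to 0.67 in fetal ventricles, so that the groups did not overlap. It fell by 0.50 (SE 0.12, limma adjusted p = 0.00987), while its other probe gave -0.33 (adjusted p = 0.0631). BMP6 gave -0.38 on its brightest probe (SE 0.17, adjusted p = 0.118) and -0.54 on the dimmer one (adjusted p = 0.00676), which was singled out after its values were seen.

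Among 4 tested receptors 1 rose and none fell. TGFBR2, the type II receptor of TGF-beta, ran from -0.84 to -0.38 in newborn and from -1.45 to -0.95 in fetal ventricles. The groups did not overlap, and it rose by 0.48 (SE 0.11, limma adjusted p = 0.00584). BAMBI, a decoy receptor for activin and bone morphogenetic proteins, gave 0.42 on both probes (adjusted p = 0.115 and 0.151).

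None of 3 tested antagonists and carriers passed. NOG, which binds bone morphogenetic proteins, gave 0.23 (limma adjusted p = 0.338), and decorin (DCN), a matrix proteoglycan that binds TGF-beta, gave -0.19 (adjusted p = 0.47). None of 5 tested SMAD genes passed. SMAD1, which carries bone morphogenetic protein signals, gave -0.27 (adjusted p = 0.154, and 0.0363 without newborn 6), and SMAD7, an inhibitor of the pathway, gave -0.37 (adjusted p = 0.242). SMAD3 was well above background on 0 arrays.

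Of 4 tested transcripts that such signals are known to raise, 1 rose and 1 fell. TIMP1, an inhibitor of matrix metalloproteinases, ran from 3.80 to 5.04 in newborn and from 3.14 to 3.93 in fetal ventricles, overlapping slightly. It rose by 0.82 (SE 0.21, limma adjusted p = 0.0136). COL3A1, a fibrillar collagen, fell by 0.37 (SE 0.12, adjusted p = 0.0469), while its 2 other probes did not pass. The COL3A1 call was lost in 9 of 13 fits that left out 1 array, all but those without fetal 4 or newborn 1, 2 or 6, with adjusted p up to 0.0959. It was also lost in 9 of 12 other alternatives, among them the fits with a random term for animal number (adjusted p = 0.0813), slide as a block (0.071) and the replicate block (0.117).

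INHA is a known target of cAMP signals in gonadal cells, and the part of cAMP in its difference here was not tested. The 6 tested cAMP-responsive genes had a median difference of 0.23, against 0.09 for all named genes. Of these 6, 1 fell and none rose by its brightest probe. AANAT, an enzyme of melatonin synthesis, gave 0.33 on that probe (limma adjusted p = 0.175) and 0.60 on its dimmer one (adjusted p = 0.0122), which was singled out after its values were seen. PPARGC1A, a coactivator of mitochondrial genes, fell by 0.40 (SE 0.13, limma adjusted p = 0.0378). Its call was lost in 9 of 13 fits that left out 1 array, all but those without fetal 5 or newborn 1, 2 or 6, with adjusted p up to 0.0781. It was also lost in 8 of 12 other alternatives, among them the same 3 fits (adjusted p = 0.0637, 0.056 and 0.0708). BMP7, TGFBR2 and TIMP1 passed in all 13 such fits, but not within either slide alone, where their differences were -0.57, 0.44 and 0.72 on slide 1 and -0.35, 0.55 and 0.78 on slide 2, nor with normexp background correction.

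**Figure D4:**
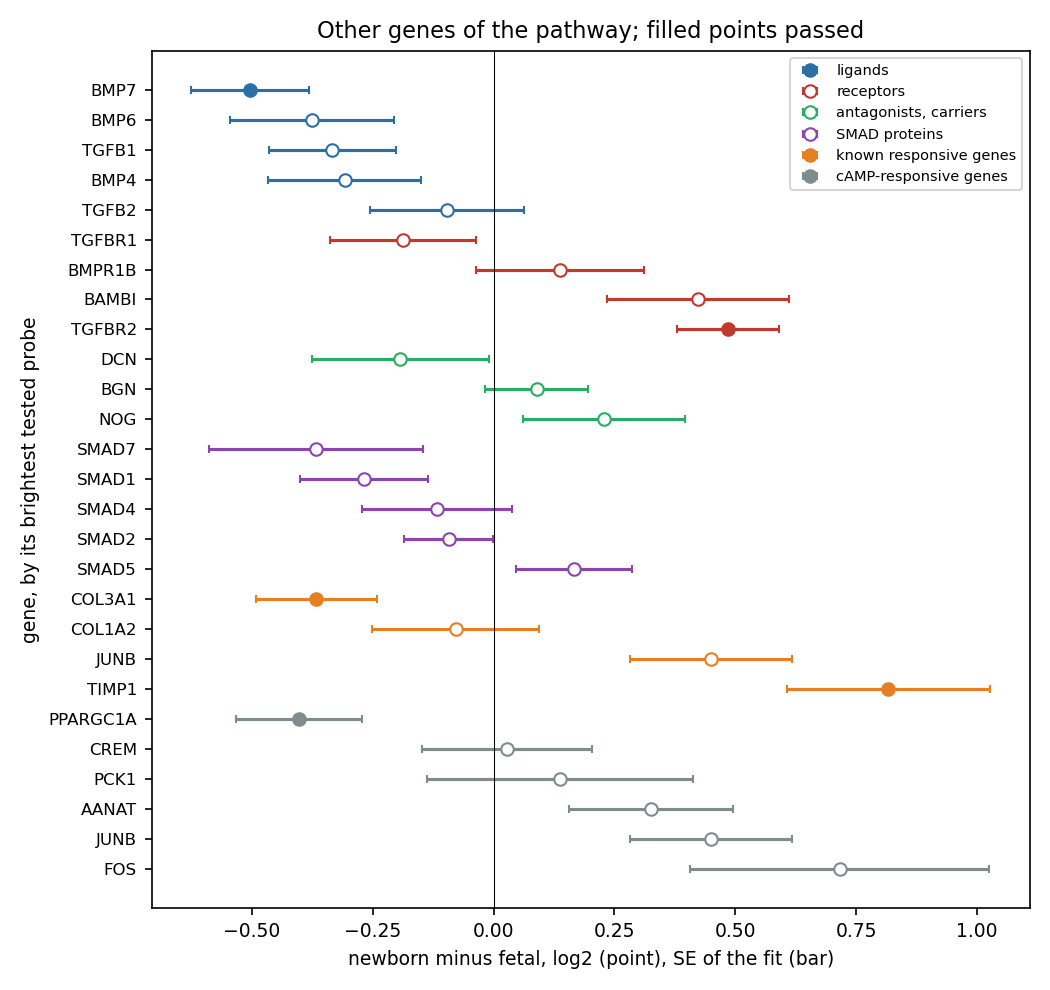
Newborn minus fetal difference (horizontal axis, log2) with the SE of the fit for each tested gene of the 6 lists, by its brightest probe. Filled points passed at an adjusted p of 0.05: BMP7, COL3A1 and PPARGC1A were lower and TGFBR2 and TIMP1 higher in newborn, and JUNB appears in 2 lists.

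Most markers of the steroid-making cells known for inhibin were at background. Of 20 gonadal and adrenal markers 11 had a named probe and 3 (INSL3, CYP17A1 and OXT) were tested, of which none passed. STAR, CYP11A1, CYP11B1, NR5A1, LHCGR, MC2R and CYP19 were well above background on 0 arrays, and FSHR on 4 newborn arrays through 1 of its probes. The summed linear level of the tested 3 ran from 1.99 to 2.63 in newborn and from 1.68 to 2.39 in fetal ventricles. For INSL3 and CYP17A1 it rests on the brightest probe, which their other probes did not match. In newborn ventricles INSL3 averaged -0.19 on its brightest probe and between -6.46 and -5.20 on the others. CYP17A1 averaged -0.29 and -4.87, and its dimmer probe was well above background on 1 newborn and 1 fetal array. The OXT probes were alike, at -0.67 and -0.83 in newborn and -0.77 and -0.87 in fetal ventricles. Both OXT probes were well above background on 7 newborn and 6 fetal arrays.

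Markers of other cell types moved with age alongside INHA, and their part in its difference was not tested. The summed linear level of 4 macrophage markers ran from 1.07 to 2.35 in newborn and from 0.736 to 1.1 in fetal ventricles, and 3 of the 4 rose. Most of that sum is FCER1G, at a log2 mean of 0.30 in newborn ventricles. CD14, FCGR1A and LYZ averaged -2.54, -2.74 and -4.07 there. LYZ did not pass and was well above background on 3 newborn and 3 fetal arrays. On the linear scale the smooth muscle gene CNN1 ran from 9.81 to 84 in newborn and from 3.63 to 7.17 in fetal ventricles. Both lymphocyte genes tested fell, with sums of 0.0422 to 0.157 in newborn and 0.207 to 0.591 in fetal ventricles. The lymphocyte gene CD3D and the erythroid gene AHSP were each well above background on 2 newborn and 5 fetal arrays. The macrophage gene FCGR1A was so on 7 newborn and 2 fetal arrays. In each, most arrays of the lower group were not well above background, so the size of these differences is uncertain. Of 3 erythroid markers 2 fell, of 5 endothelial markers 3 fell, of 5 fibroblast markers 2 fell (COL3A1 being one), and of 3 skeletal muscle markers 2 rose. Those 2 were MYL11 by 0.31 and MYOD1 by 0.43, and the dimmer MYOD1 probe did not pass (limma adjusted p = 0.111). The remaining skeletal muscle marker, TNNC2, did not pass and varied widely, from -0.46 to 5.30 in newborn and from -0.72 to 3.84 in fetal ventricles. Among all tested named genes 13.9% were higher and 9.62% lower in newborn.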

How the data were processed

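Spot intensity values in the deposited files came from Agilent Feature Extraction 10.1.1.1, background-subtracted and detrended within each array, per the file headers. The protocol names Cy3 and the label field Cy5; the files hold 1 green channel and were read as 1-colour. The authors' deposited series matrix was read, from its values, as log2 signals of 7041 probes (5 of the family); its scale is not stated, and it served only as an alternative.

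Control and outlier-marked spots were left out, spots of a probe averaged, log2 signals scaled to each array's 75th percentile, and probes well above background on at least 6 arrays fitted with limma 3.58.1 (R 4.3.3; files read with version 1.17.8 of data.table), two-sided, Benjamini-Hochberg over 10255 probes, threshold 0.05. Names came from the files, updated through RefSeq gene names (1540 probes, 957 genes). Arrays are separate animals by their labels, some of which may be related. Steps were tested on simulated data. Named were all family probes, passing list members (or 2 with the smallest p), and the genes most and least like INHA, some of which are not reported here. The members and lists were chosen with earlier results of these data known. Alternatives were other backgrounds, scalings, filters, slide, sex, replicate and animal terms, and each array left out.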

Additional observations from a re-analysis of the deposited data

Results flagged for a closer look

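Of 20 sets of family values (10 probes in newborn and fetal ventricles), 3 held an array far from the others of its group by Dixon's criterion, where chance alone gives about 5%. On newborn 6 INHA was 1.02 on probe A_70_P016836, with the other newborn arrays between 2.08 and 2.69, and 0.80 on probe A_70_P016837, with the others between 2.08 and 2.56. These probes share 59 bases and count as 1 observation. Newborn 6 is also the array that lay between the groups on the first principal component. On fetal 6 the second ACVR2A probe, A_70_P051217, was -1.80, with the other fetal arrays between -3.26 and -2.76, while the first ACVR2A probe was -2.51 on that array.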

How the results depend on the processing

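No family probe changed direction under any alternative that gave it a value. INHA (A_70_P016836) was 2.30 with normexp and 2.34 in the series matrix, and 2.78 to 3.18 with 1 array left out; ACVR1 was -0.36 to -0.20 there and -0.31 to -0.09 otherwise. INHBA, FST and ACVR2B shrank most with normexp or the series matrix, INHBA to 0.16 and 0.26, FST to -0.21 and -0.14 and ACVR2B to -0.26. The first ACVR2A probe came closest to 0 within slide 2 (-0.01), and the second with 1 array, fetal 6, left out (-0.01). Probes that passed (1227 higher and 1139 lower in newborn) came to 22 and 26 with normexp, 190 and 165 within slide 1, 11 and 12 within slide 2, and 885 to 1596 and 842 to 1520 with 1 array left out. The cause of the normexp loss was not tested; the slide fits hold fewer arrays. Replicate numbers did not pair the samples (correlations of deviations -0.07 to 0.05), and the replicate block over 6 pairs left 643 and 683. A random term for animal number (estimated correlation within a number 0.18) left 862 higher and 855 lower. With that term INHA (A_70_P016836) was 2.9. BMP7, TGFBR2 and TIMP1 still passed (limma adjusted p = 0.0192, 0.0116 and 0.0208). Of list members (2 higher and 3 lower), 0 and 0 passed with normexp and within slides 1 and 2; 1 lower with no filter, slide block, replicate block or animal number as random block; 4 and 1 with sex added; and 2 to 4 and 1 to 5 with 1 array left out, the most without newborn 6 (4 and 5). With 1 array left out, the interaction passed for 0 to 2 probes and sex for 1 whichever array was left out. Sex, interaction and likeness values of INHA without newborn 6 were added after seeing the data. Few arrays limit precision, and ACVR1B is limited by signal over background.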
